A study of Mus musculus with 6 samples.

Results

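Cultures of mouse embryonic fibroblasts infected with SKO together with Gadd45a were compared with cultures infected with SKO together with Flag, as differences within replicate number. The comparison took 4 of the 6 arrays of the series by their titles: the samples of SKO+Ga and of SKO+Flag, replicates 1 and 2 of each. All were primary fibroblasts sampled at day 8 of reprogramming. By the labels' protocol they were infected with virus and then kept for 6 days in medium with serum and LIF. By the labels the Flag cultures received SKO as well. The labels do not spell out SKO, the promoter or the vector, and do not say whether the replicates were separate cultures. The p-values therefore measure only the spread between these arrays, which may be technical. The remaining 2 arrays held G39A, which the design text calls a negative mutant of Gadd45a. They entered the estimate of the spread and are given beside the leading genes only. In the fits that left out 1 array, they also entered the difference itself, through the replicate block.

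The study asked which genes Gadd45a regulates during the reprogramming of somatic cells. Gadd45a belongs to a family of small stress-inducible proteins that have no enzyme activity of their own and act by binding partners. Among the partners are the kinase Map3k4, which feeds the p38 and JNK stress kinases, PCNA, the cell cycle inhibitor p21, and enzymes of DNA repair that have been linked to the removal of methyl groups from DNA. Reprogramming replaces a fibroblast programme of matrix and contractile genes with an epithelial and then a pluripotent one, and most cells in such a culture do not complete it. Virus-infected fibroblasts can also switch on interferon-stimulated genes, whose products block viral replication.

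Of 41174 probes on an array, 61.7% and 62.5% were well above background in Flag (replicates 1 and 2) and 56.5% and 59.4% in Gadd45a, and no spot was saturated. Replicate 1 of both groups lay on one slide and replicate 2 on another, so replicate and slide cannot be told apart in these 4 arrays. The G39A array of replicate 1 lay on a slide of its own. That of replicate 2 shared the slide of the other replicate 2 arrays. All 8 fibroblast markers, among them Col1a1 and Thy1, were well above background on the 4 arrays. Some of the 8 differed far more between the replicates than between the groups. In Flag, Pdgfra gave 227 and 6260 on replicates 1 and 2, Thy1 17531 and 106233, and Fn1 2336 and 15317. Others differed little, such as Col1a2 (211983 and 242496) and Vim (82603 and 89191). The signals of other cell types' markers also differed mainly between the replicates. The summed signal of the 5 markers of pluripotent cells was 4302 in Flag and 5765 in Gadd45a on replicate 1 and 258 and 229 on replicate 2. That of the 6 macrophage markers was 1271 and 1387 on replicate 1 and 8238 and 4515 on replicate 2, although their defining marker Ptprc was not well above background on any of the 4. Single genes made up most of these sums, Pou5f1 on replicate 1 and Lyz2 (804 and 871, then 7592 and 4038) for macrophages. Other members did not follow them. Dppa5a of pluripotent cells gave 209 and 187, then 218 and 199, and the macrophage marker Cd68 gave 356 and 367, then 186 and 193. Pou5f1, whose protein Oct4 is usually the O of such mixes, had signals of 3851 and 5153 on replicate 1 and was not well above background on replicate 2. If that factor was mouse Pou5f1 and its probe reads the introduced copy, the replicate 2 signal goes against the SKO label, so the directions below are those of the arrays labelled SKO. The Gadd45a probe gave 1017 in Flag and 560 in Gadd45a on replicate 1, and 2309 and 1870 on replicate 2. The group labelled Gadd45a did not have the brighter probe (log2 difference -0.56, SE 0.27). Whether that probe reads an introduced copy is not given in the sources used here, so it checks no label.

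After filtering, 15650 genes were tested, each by its brightest probe, and 2872 of them carry only a clone or transcript identifier. Of these, 14174 were well above background on all 4 arrays and are called measured below. Another 251 were bright on both Flag arrays and dim on both Gadd45a arrays, 10 were the reverse, 1205 were bright on some arrays of a group only, and 10 were dim in both groups and entered through G39A. Signals are processed intensities, and differences are log2, Gadd45a minus Flag, after each array was set to its 75th percentile.

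No gene passed limma's test with the replicate number as a block (0% of 15650 genes at an adjusted p under 0.05, lowest adjusted p = 0.127). Dlgap1, which was bright in Flag only, had this lowest value, and its p rests partly on dim signals. Unadjusted, 1344 genes had a p under 0.05, of which 456 were higher in Gadd45a (2.91%) and 888 lower (5.67%). Without a filter on dim probes, 1408 of 27594 genes were higher and 611 lower at that limit in the same test. Which side held more genes thus depended on the filter. What follows is therefore a description of genes and their sizes of difference. At least 2-fold in both replicates, 6 of the measured genes were higher (0.0423%) and 4 lower (0.0282%), and 3 were past 2-fold in opposite directions (0.0212%). At 1.5-fold these counts were 44 higher (0.31%), 52 lower (0.367%) and 17 opposite. In any amount, both replicates were higher in Gadd45a for 3432 genes (24.2%), and both were lower for 4554 (32.1%). Both Gadd45a arrays lay above both Flag arrays for 733 genes (5.17%) and below both for 986 (6.96%). Replicate 2 differed more: 196 genes were at least 2-fold higher and 129 lower there, against 34 and 16 in replicate 1. Across the measured genes, which are not independent, the differences of the 2 replicates correlated at 0.22, with standard deviations of 0.23 and 0.36.

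**Figure D1:**
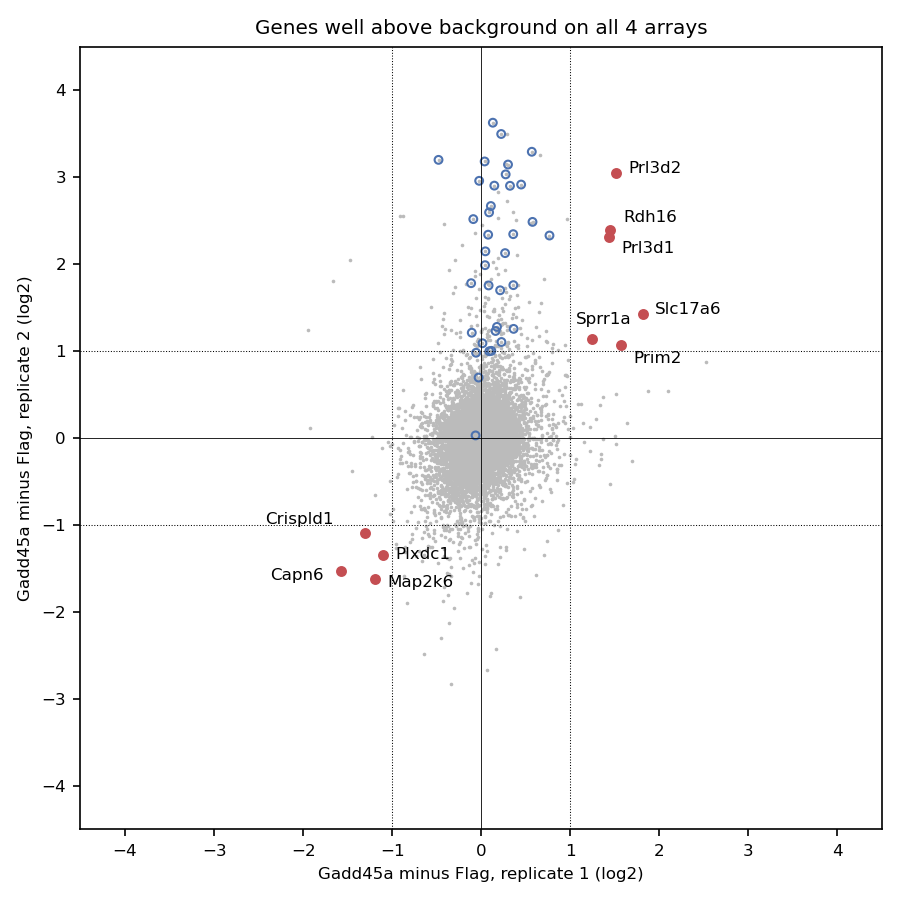
Log2 difference of Gadd45a minus Flag in replicate 1 (horizontal axis) against replicate 2 (vertical axis) for the 14174 measured genes; dotted lines mark 2-fold, filled points the 10 genes past it the same way in both, and open circles the measured interferon effectors and interferon-inducible GTPases. The open circles run up the vertical axis, near 0 in replicate 1, while the 10 filled points lie in the upper right and lower left corners.

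The 15 genes highest in both replicates, by the smaller of their 2 differences, held Prl3d2, Prl3d1 and Prl of the prolactin family, hormones that trophoblast and pituitary cells secrete. Prl3d2, a placental lactogen of trophoblast giant cells, had signals of 658 in Flag and 1941 in Gadd45a on replicate 1, and 24.2 and 187 on replicate 2 (probe at chromosome 13, 27219216 to 27219275, mm9). Gadd45a was 2.86-fold and 8.26-fold higher within the replicates (log2 1.52 and 3.05, SE 0.41, adjusted p = 0.445). Its neighbour and near copy Prl3d1 (chromosome 13, 27192011 to 27192070) gave 938 and 2624, then 55.4 and 258, which is 2.71-fold and 4.99-fold (SE 0.34, adjusted p = 0.445). For both genes the Flag array of replicate 1 was brighter than the Gadd45a array of replicate 2, so the groups overlap and the difference shows only within replicates. On the G39A arrays Prl3d2 gave 732 and 59.9 and Prl3d1 769 and 97.5, each between or close to the Flag and Gadd45a signals of its replicate. Prl itself, the pituitary hormone, was dim but separated the groups: 33.9 and 31.6 in Flag, 67.0 and 61.9 in Gadd45a (log2 0.94 and 1.07, SE 0.10, adjusted p = 0.287).

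The rest of the family, examined after these values were seen, was mostly silent or uneven. Of 23 prolactin family genes on the array, 6 were well above background on all 4 arrays and 15 were dim on all 4. Prl3a1, another placental member, gave 33.3 in Flag and 42.7 in Gadd45a on replicate 1, and 41.8 and 118 on replicate 2. Prl2c3 and Prl2c5, proliferin genes known as growth-induced in fibroblasts, went opposite ways. Prl2c5 gave 991 and 545 on replicate 1 and 1480 and 8143 on replicate 2, and Prl2c3 606 and 340, then 893 and 4913. Members of this family share long stretches of sequence, so a probe may read more than 1 of them, and the split between near copies is uncertain.

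The promoters of the 2 placental lactogens are shown because the genes differed together, and that of Sprr1a because it carries the same motif. They are RefSeq sequences of build GRCm38.p6, the 250 bases before the annotated start, with each match to TGANTCA, the core of an AP-1 site, in capitals. The Prl3d1 stretch is chr13:27093939-27094188 on the plus strand, that of Prl3d2 chr13:27121445-27121694 on the plus strand, and that of Sprr1a chr3:92485882-92486131 on the minus strand.
Prl3d1: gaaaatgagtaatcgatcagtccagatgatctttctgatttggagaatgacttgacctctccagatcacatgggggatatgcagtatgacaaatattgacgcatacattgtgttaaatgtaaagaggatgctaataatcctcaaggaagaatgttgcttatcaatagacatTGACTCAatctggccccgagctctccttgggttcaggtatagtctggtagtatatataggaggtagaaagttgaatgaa
Prl3d2: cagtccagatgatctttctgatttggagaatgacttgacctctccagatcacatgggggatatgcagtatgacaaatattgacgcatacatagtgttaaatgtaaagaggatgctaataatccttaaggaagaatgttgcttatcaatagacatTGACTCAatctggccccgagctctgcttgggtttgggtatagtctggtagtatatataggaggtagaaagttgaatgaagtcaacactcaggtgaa
Sprr1a: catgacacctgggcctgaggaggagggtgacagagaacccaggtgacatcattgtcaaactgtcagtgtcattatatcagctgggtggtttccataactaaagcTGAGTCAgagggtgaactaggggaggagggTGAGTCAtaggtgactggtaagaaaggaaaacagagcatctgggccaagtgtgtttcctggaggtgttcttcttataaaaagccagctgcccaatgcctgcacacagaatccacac

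Over the 283 bases that the windows of Prl3d1 and Prl3d2 share, the 2 promoters differ at 6 positions (97.9% identical), and both hold the motif once. On either strand of the window from 250 bases before to 50 after the start, TGANTCA occurs in 8.97% of 27025 genes. It occurs in 5 of the 12 genes with a promoter sequence among the 15 highest in both replicates (Myoz2, Prl3d1, Prl3d2, Serpinb7 and Sprr1a) and in 2 of 11 among the 15 lowest (Capn6 and Map2k6). Among the lists described below, TGANTCA occurs in 5 of 18 interferon effectors and 2 of 7 interferon-inducible GTPases with a promoter sequence. For sterol synthesis and handling it was 2 of 22. Of the 5 highest genes with it, Prl3d1 and Prl3d2 are near copies. The motif was chosen after the values were seen, and a match is a description of the sequence, not of binding.

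Outside the family, the genes at least 2-fold higher in both replicates were Slc17a6, Sprr1a, Prim2 and Rdh16. Slc17a6, a vesicular glutamate transporter of neurons, separated the groups: 201 and 149 in Flag, 727 and 374 in Gadd45a, and 218 and 153 in G39A (chromosome 7, 58924553 to 58924612). That is 3.51-fold and 2.68-fold (log2 1.81 and 1.42, SE 0.16, adjusted p = 0.287). Sprr1a, a cornified envelope precursor of squamous epithelium, gave 416 and 1019 on replicate 1 and 106 and 218 on replicate 2 (chromosome 3, 92287955 to 92288014; SE 0.15, adjusted p = 0.364). Both replicates differed by a similar amount, 2.37-fold and 2.20-fold, while the level itself was lower on replicate 2, so the groups overlap.

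Prim2, the large primase subunit, was dim at 29.8 and 25.3 in Flag and reached 91.0 and 49.9 in Gadd45a (chromosome 1, 33510733 to 33510792; SE 0.20, adjusted p = 0.418). On G39A it gave 64.4 and 27.5, nearer Gadd45a on replicate 1 and nearer Flag on replicate 2. Rdh16, a retinol dehydrogenase, was near background in Flag at 22.4 and 24.8 against 63.1 and 122 in Gadd45a (chromosome 10, 127252579 to 127252638; SE 0.86, adjusted p = 0.628). On G39A replicate 2 it gave 4.46, not well above background, and the error includes this array. Both genes separated the groups, at signals where the error is large: the differences of the 2 replicates parted with a standard deviation of 0.36 among the dimmest of 4 equal bins of genes and 0.18 among the brightest.

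The other 9 of the 15 highest genes differed by 0.74 to 0.98 in replicate 1. Pcsk1, a convertase that cuts prohormones, gave 84.3 and 170 on replicate 1 and 26.6 and 142 on replicate 2. Gap43, a protein of growing axons, gave 338 and 686, then 160 and 279. Blnk, an adaptor of B cell receptor signalling, gave 347 and 622, then 65.8 and 112 (adjusted p = 0.314). The remaining 6 were Gsta2, a glutathione transferase, Myoz2, a sarcomere protein, the interferon-inducible GTPase Iigp1, Serpinb7, a serpin, Sstr4, a somatostatin receptor, and Prl. Of the 15, 13 were dimmer on the Flag array of replicate 2 than on that of replicate 1. On G39A, 13 of the 15 in each replicate lay nearer Flag than Gadd45a. The G39A and Gadd45a differences share the Flag arrays. The 15 were picked by their Gadd45a minus Flag differences on these arrays, so the count of 13 lends no support of its own. The share over all measured genes is not given here.

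Of the 15 genes highest and the 15 lowest in both replicates, Capn6, on the lower side, had the smallest p. Capn6 is a calpain-like protein that lacks protease activity, binds microtubules and is abundant in embryonic muscle and placenta. Its signals were 699 in Flag and 243 in Gadd45a on replicate 1, and 3385 and 1093 on replicate 2 (chromosome X, 140237100 to 140237159). The gene was 2.98-fold and 2.89-fold lower, nearly the same in both (log2 -1.57 and -1.53, SE 0.11), with an unadjusted p of 8.2e-05 and an adjusted p = 0.156. G39A gave 778 and 2771, close to Flag. Because the level on replicate 2 was several times that on replicate 1, the groups overlap, as they do for Plxdc1. Leaving out each Flag and Gadd45a array in turn, with the G39A arrays kept in the fit, gave -1.63 to -1.48.

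Map2k6, the kinase that activates p38, differed by a similar size. Its signals were 470 and 328 in Flag, 212 and 99.8 in Gadd45a, and 533 and 256 in G39A (chromosome 11, 110374803 to 110374862). The Gadd45a arrays lay below all the others, 2.28-fold and 3.08-fold under Flag (log2 -1.19 and -1.62, SE 0.14, adjusted p = 0.287). Plxdc1, a membrane protein first described in tumour endothelium, gave 392 and 188 on replicate 1 and 1255 and 461 on replicate 2 (chromosome 11, 97784556 to 97784615; adjusted p = 0.248). Crispld1, a secreted protein of the cysteine-rich family, gave 137 and 57.1, then 306 and 134 (chromosome 1, 17754653 to 17754712; adjusted p = 0.254). Their differences were -1.11 and -1.35 for Plxdc1, and -1.30 and -1.09 for Crispld1, each with an SE of 0.11. On scaled log2 values the groups of Crispld1 overlap, at -2.48 on Gadd45a replicate 2 and -2.60 on Flag replicate 1.

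**Figure D2:**
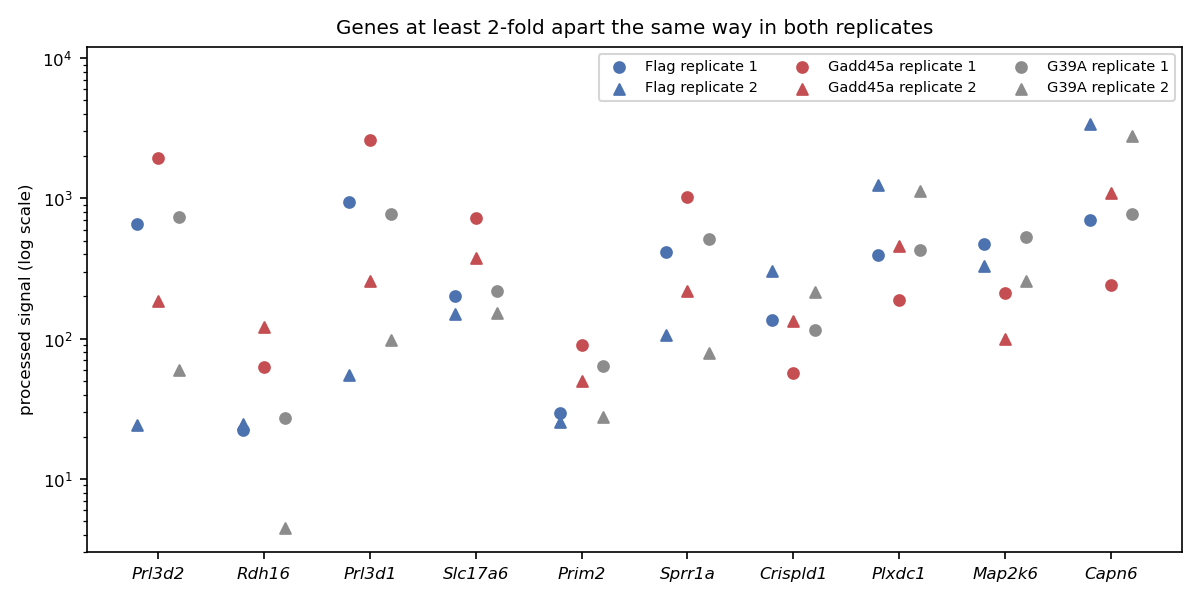
Processed signal on a log scale (vertical axis) of the 10 genes at least 2-fold apart the same way in both replicates (horizontal axis), for Flag, Gadd45a and G39A, with circles for replicate 1 and triangles for replicate 2; each point is 1 array. Within a replicate the Gadd45a point of each gene lies above (left 6 genes) or below (right 4) the Flag point. Prl3d2, Prl3d1, Sprr1a, Capn6 and, by less, Plxdc1 differ more between the replicates than between the groups.

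The next genes on the lower side included receptors and secreted proteins. Kazald1, a secreted protein related to the binding proteins of insulin-like growth factors, was among the brightest: 8195 and 4654 on replicate 1, 3025 and 937 on replicate 2. Gamt, which makes creatine, gave 1915 and 1092, then 3885 and 1526 (log2 -0.86 and -1.25, SE 0.13). Rtn4rl1, a receptor of the Nogo receptor family, differed by -0.96 and -1.22 (SE 0.11, adjusted p = 0.314). The rest held the receptors Gper1, a membrane receptor for oestrogen, Gpr155, an orphan receptor, and Tnfrsf19, a receptor of the tumour necrosis factor family that is a WNT target. Selenbp1, a selenium-binding protein, Stxbp6, a syntaxin-binding protein, Ccnjl, a cyclin-like protein, and Raver2, an RNA-binding protein, were also among the 15. For Raver2 another probe had the opposite sign. The adjusted p of the 15 ran from 0.156 to 0.589. G39A lay nearer Flag than Gadd45a for 14 of the 15 in each replicate. These 15 too were picked by their Gadd45a minus Flag differences, so the count of 14 lends no support of its own.

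The p38 and JNK cascade, which Gadd45 proteins feed through Map3k4, had lower signals for 3 of its upstream kinases and no common direction as a list. The 25 measured members had medians of 0.00 and 0.01 in the replicates, against -0.03 and 0.00 over all measured genes. At an unadjusted p under 0.05, 4 of the 25 were lower and 0 higher, where 5.67% and 2.91% of all genes tested were, and none passed over all genes (limma). In any amount, 9 of the 25 were higher in each replicate and 8 lower in each, where 24.2% and 32.1% of all measured genes were. The 4 lower at an unadjusted p under 0.05 (limma) were Map2k6 and 3 upstream kinases of the cascade. Map3k5, also known as ASK1, gave 370 and 258 on replicate 1 and 91.8 and 65.8 on replicate 2 (log2 -0.56 and -0.38, SE 0.10). Map3k4 itself gave 3649 and 2803, then 3918 and 2843 (-0.43 and -0.36, SE 0.10), and Map3k12, also known as DLK, differed by -0.31 and -0.26. For Map3k4 both Gadd45a arrays lay below both Flag arrays. Mapk14, which encodes p38 alpha, differed by -0.27 and -0.08, Mapk8, which encodes JNK1, by -0.34 and 0.18, and Map2k3, the other p38 activator, by 0.02 and -0.29.

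Immediate early transcription factors split. Egr2 and Egr1, zinc finger factors induced by serum and ERK signalling, were lower: Egr2 gave 566 and 399, then 223 and 125 (log2 -0.55 and -0.74, SE 0.12), and Egr1 differed by -0.46 and -0.61. Fosl1, a subunit of AP-1, was higher at 363 and 533, then 320 and 483 (0.51 and 0.69, SE 0.10), and so was the stress factor Atf3 (0.38 and 0.22). Of 21 measured members, 6 were higher in each replicate and 6 lower in each, where 24.2% and 32.1% of all measured genes were. Feedback inhibitors of the MAP kinases had 8 of 19 members higher in both and 3 lower, led by Spred3 (0.40 and 0.59) and the phosphatases Dusp9 (0.25 and 1.20) and Dusp16 (0.37 and 0.23). With the median over its probes, Dusp16 turned to -0.0350.

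Of the 43 gene lists, the interferon-stimulated genes differed most between the replicates. In replicate 2, all 26 measured interferon effectors were higher in Gadd45a, 22 of them at least 2-fold, with a median difference of 2.56. In replicate 1 the median was 0.10, 18 were higher and none by 2-fold. Of all 14174 measured genes, 7219 were higher in replicate 2, 196 of them at least 2-fold. In replicate 1, 5833 were higher, 34 of them at least 2-fold. Isg15, a ubiquitin-like modifier, gave 6765 in Flag and 9526 in Gadd45a on replicate 1, and 3337 and 23555 on replicate 2. Oas2, which makes the activator of an antiviral RNase, gave 2194 and 2833, then 31.2 and 218. Usp18, which removes Isg15 from proteins, gave 3879 and 4677, then 715 and 7553. In these genes the Flag array of replicate 2 was the lowest of the 6, and for Oas2 the Gadd45a array of replicate 2 stayed below both arrays of replicate 1. On G39A replicate 2 they gave 19984, 166 and 4525. Leaving out the Flag array of replicate 2 gave a fitted list median of 0.10 in place of 1.35, and leaving out the Gadd45a array of replicate 2 gave 0.64. Leaving out the Flag array of replicate 1 gave 2.55. In these fits the G39A arrays help set the replicate difference, so the values are not those of Flag and Gadd45a arrays alone.

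Interferon-inducible GTPases, which attack the membranes around intracellular parasites, were higher in both replicates in all 10 measured members, where 24.2% of all measured genes were. Their medians were 0.22 and 1.94. Tgtp1 gave 5468 and 8412 on replicate 1 and 483 and 2533 on replicate 2 (log2 0.58 and 2.49, SE 0.55, adjusted p = 0.573). Igtp gave 2594 and 3224, then 1416 and 5782, and Gbp2 2878 and 3822, then 1658 and 3701. Iigp1 was lower on replicate 1, at 126 and 221, than on replicate 2, at 968 and 4551. Within replicate 1 the members' differences ran from 0.05 to 0.77, so the sign was shared and the size small. These genes commonly respond to 1 signal and are no independent observations. Without the Flag array of replicate 2 the fitted median of the list was 0.19 in place of 1.03, and 0.66 without the Gadd45a array of replicate 2. Both of these fits drew on the G39A arrays too.

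The promoters of the GTPases are shown for the motif they share. GAAANNGAA, the core of the interferon-stimulated response element, occurs on either strand within the window of 250 bases before to 50 after the start in 9.76% of 27025 genes. It occurs in 7 of the 7 GTPase genes with a promoter sequence and in 10 of 18 interferon effectors. The motif was chosen after the values were seen, and these genes are textbook targets of the element. The 80-base stretches below come from RefSeq, GRCm38.p6, with the matches on either strand in capitals. They lie at chr3:142620575-142620654 (plus strand), chr3:142559964-142560043 (plus), chr3:142530254-142530333 (plus), chr11:58199476-58199555 (plus), chr11:48871421-48871500 (minus), chr11:58214883-58214962 (plus) and chr11:48992274-48992353 (minus), in the order of the lines.
Gbp2: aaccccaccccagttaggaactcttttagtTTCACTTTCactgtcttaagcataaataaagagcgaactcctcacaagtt
Gbp3: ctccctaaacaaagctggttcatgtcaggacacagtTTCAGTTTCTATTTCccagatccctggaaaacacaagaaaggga
Gbp7: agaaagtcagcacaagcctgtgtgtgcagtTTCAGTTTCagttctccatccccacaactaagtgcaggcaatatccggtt
Igtp: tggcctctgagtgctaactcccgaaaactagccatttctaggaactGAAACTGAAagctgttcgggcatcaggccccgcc
Irgm1: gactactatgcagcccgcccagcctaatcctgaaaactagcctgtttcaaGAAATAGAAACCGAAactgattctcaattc
Irgm2: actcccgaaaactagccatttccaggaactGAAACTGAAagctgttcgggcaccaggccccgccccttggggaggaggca
Tgtp1: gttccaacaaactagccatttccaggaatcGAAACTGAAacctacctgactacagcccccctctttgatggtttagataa

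Lists next to the interferon response differed in the same replicate. Nucleic acid sensors had medians of 0.00 and 0.27, chemokines -0.04 and 0.41, and genes of MHC class I presentation -0.03 and 0.24. Cxcl10, a chemokine that interferon induces, gave 119 and 150, then 321 and 3380. Tap1, the peptide transporter of class I presentation, was higher in both replicates (58.6 and 77.3, then 90.3 and 156). So were Ccl2 and Ccl7, attractants of monocytes: Ccl2 gave 27455 and 34939, then 25378 and 51089. Il6, an inflammatory cytokine, gave 375 and 532, then 411 and 986 (log2 0.46 and 1.36, SE 0.23, adjusted p = 0.502). Of the cytokine and NF-kappaB list, 4 of 21 members were higher in each replicate and 7 lower, close to the 24.2% and 32.1% of all measured genes. Among the 7 was the inhibitor Nfkbia (-0.20 and -0.34).

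**Figure D3:**
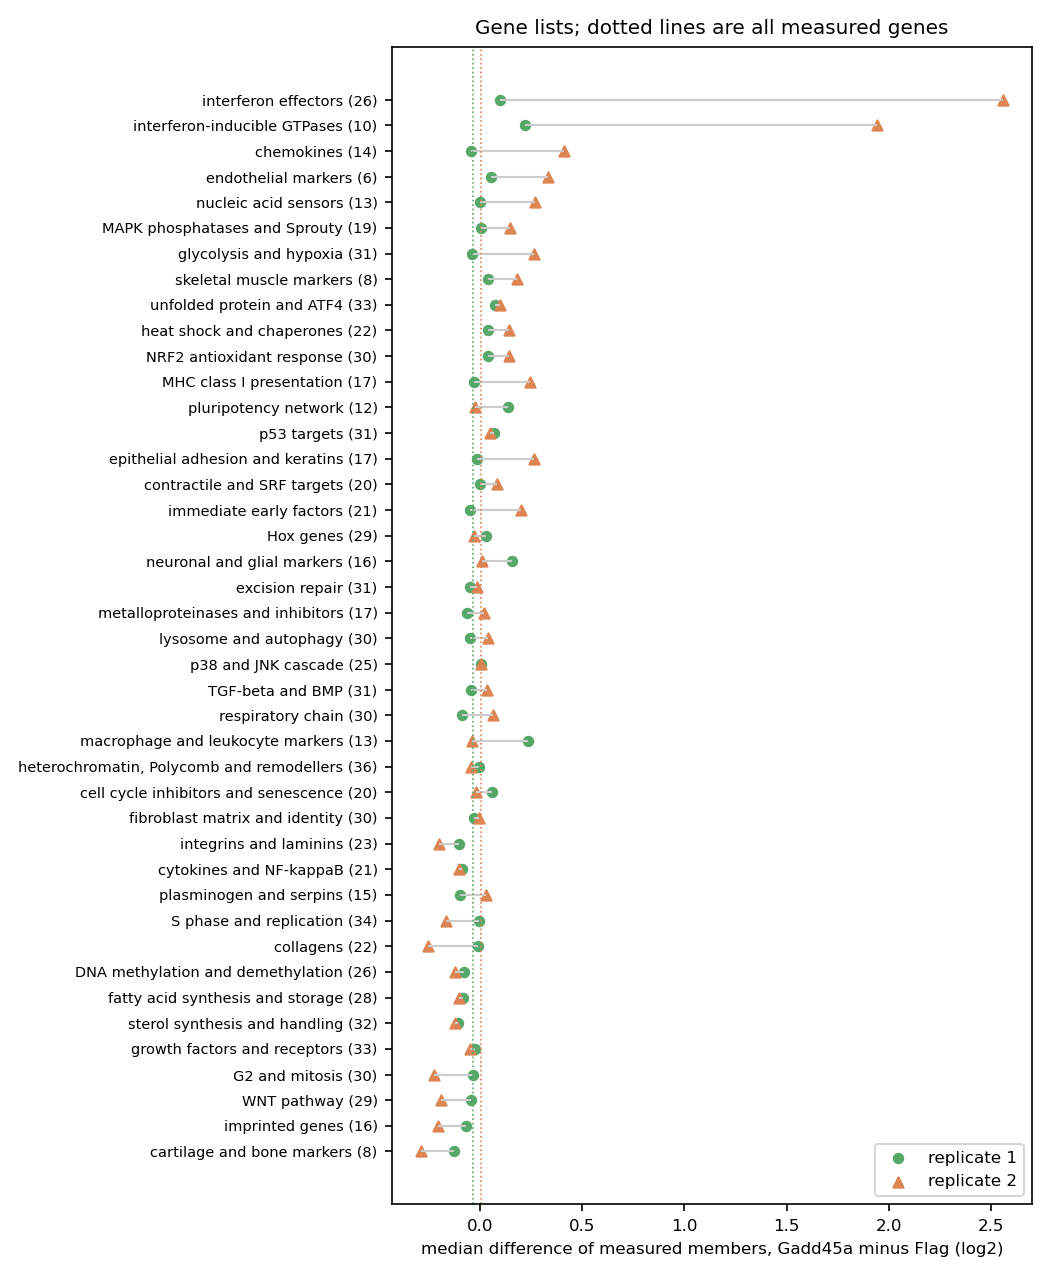
Median log2 difference, Gadd45a minus Flag, of the measured members of each gene list with at least 5 of them (number in brackets), for replicate 1 (circles) and replicate 2 (triangles); dotted lines mark the medians of all measured genes. The 2 interferon lists stand far to the right in replicate 2 only, and most other lists lie close to 0 in both.

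Stress response lists held larger shares of members higher in both replicates than the 24.2% of all measured genes. Of genes of the unfolded protein response and ATF4, 17 of 33 were higher in both and 1 was lower. Ppp1r15a, also known as Gadd34, which restores translation after stress, differed by 0.44 and 0.35 (SE 0.10), and Trib3, an ATF4 target, by 0.31 and 0.34. Of the NRF2 antioxidant list, 14 of 30 were higher in both and 4 lower, the former with the glutathione transferases Gsta2 (165 and 298, then 70.4 and 139) and Gsta1 (0.52 and 0.94). Of heat shock genes and chaperones, 10 of 22 were higher in both and 1 lower, with Hspb1, a small heat shock protein, at 0.31 and 0.49. Of p53 targets, 13 of 31 were higher in both and 6 lower. Gdf15, a stress cytokine, gave 898 and 1243, then 915 and 1264, Plk3, a stress kinase, 1051 and 1404, then 1262 and 1949, and Mdm2, the ubiquitin ligase of p53, 2800 and 3576, then 3348 and 4326. For these 3 genes both Gadd45a arrays lay above both Flag arrays, as for 5.17% of all measured genes. By processed signal this held for 4 of the 31 p53 targets. For Mdm2 the scaled log2 values nearly met, at 2.0611 on Gadd45a replicate 1 and 2.0608 on Flag replicate 2. The medians of the 4 lists were small, at most 0.14 in either replicate, and no member passed over all genes.

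Genes of the cell division cycle had medians below 0 mainly in replicate 2. Of 30 genes of G2 and mitosis, 17 were lower in each replicate and 0 were higher in each, and of 34 genes of S phase 16 and 0, with 13 and 18 members going opposite ways, where 32.1% of all measured genes were lower in both. Their medians were -0.04 and -0.22 for G2 and mitosis, and -0.01 and -0.17 for S phase, so the replicate 1 medians lay close to that of all genes (-0.03). Mki67, a marker of proliferating cells, gave 17086 and 15005, then 6702 and 4330 (log2 -0.23 and -0.53, SE 0.14). Tk1, thymidine kinase, differed by -0.17 and -0.49, and Pcna, the replication clamp that Gadd45 proteins bind, by -0.11 and -0.22. Of inhibitors of the cycle, Cdkn2a, which encodes p16 and p19Arf, was higher (538 and 771, then 1885 and 2154), Cdkn2c lower (-0.37 and -0.51), and Cdkn1a, which encodes p21, gave 21655 and 24024, then 22915 and 25312 (0.10 and 0.24, SE 0.10).

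Of 32 genes of sterol synthesis, 20 were lower in both replicates, 3 higher in both and 9 opposite, where 32.1% of all measured genes were lower in both. The medians were -0.11 and -0.12, and no member passed over all genes. Tm7sf2 and Dhcr7, reductases late in cholesterol synthesis, led: Tm7sf2 gave 13976 and 10295, then 7335 and 4404 (log2 -0.49 and -0.64, SE 0.10, adjusted p = 0.445), and Dhcr7 8583 and 7082, then 9281 and 5545. Lss, the cyclase that forms lanosterol, differed by -0.31 and -0.36. Of fatty acid synthesis and storage, 14 of 28 were lower in both and 6 higher. Cebpa, a factor of fat cell differentiation, was lower (88.3 and 67.9, then 331 and 182), while Dgat2, which makes triglycerides, was higher (1749 and 2318, then 1776 and 2619). Of glycolysis and hypoxia genes, 7 of 31 were higher in both and 3 lower, led by the glucose transporter Slc2a1 (3245 and 4564, then 9931 and 12613). Of the respiratory chain, 2 of 30 were higher in both and 7 lower. Neither share of higher members exceeds the 24.2% of all measured genes.

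**Figure D4:**
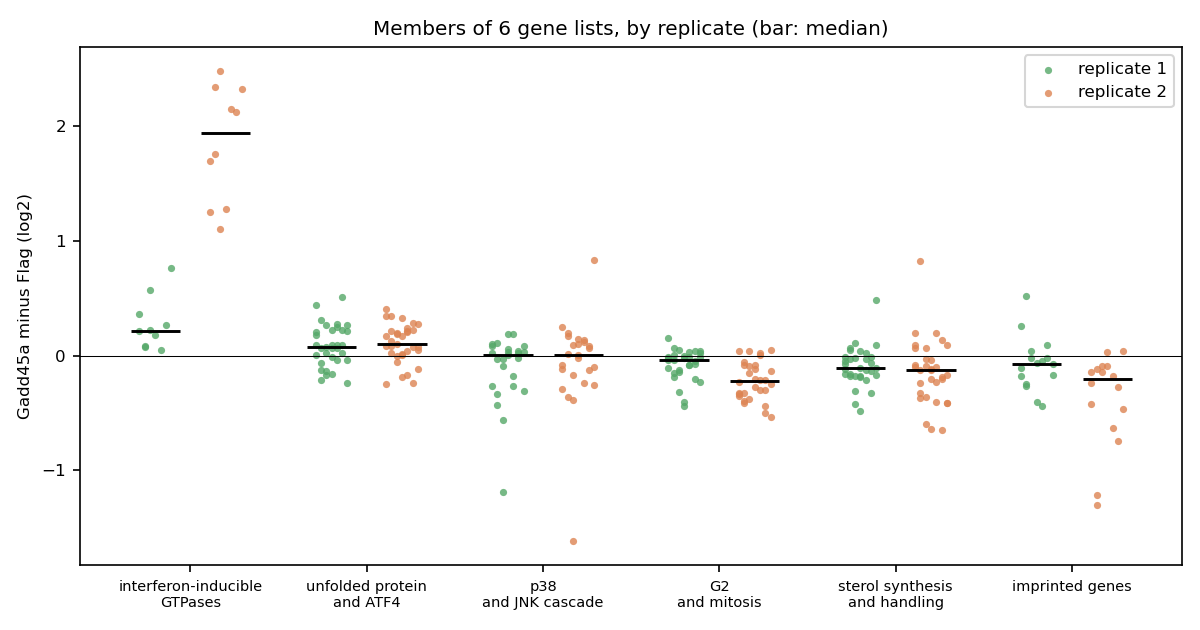
Log2 difference, Gadd45a minus Flag, of each measured member of 6 gene lists in replicate 1 and replicate 2, with bars at the medians; each point is 1 gene. All 10 GTPases lie above 0 in both replicates, the low point of the p38 and JNK list in both is Map2k6, and the sterol list has medians of -0.11 and -0.12.

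Imprinted genes of the embryonic growth network, expressed from 1 parental allele, had 10 of 16 members lower in each replicate and 0 higher in each (medians -0.07 and -0.21). For each list in this paragraph, the shares over all measured genes were 32.1% lower in both and 24.2% higher in both. H19, a non-coding RNA, gave 2812 and 2141 on replicate 1 and 87964 and 53169 on replicate 2 (log2 -0.44 and -0.63, SE 0.10). Dlk1, a membrane protein of progenitor cells, gave 781 and 671, then 56683 and 21494, and Mest 965 and 840, then 27373 and 10994. Their levels differed far more between the replicates than between the groups. In the WNT pathway 14 of 29 were lower in both and 4 higher, led by the receptor Fzd4 (721 and 515, then 965 and 424). Nkd1 (-0.24 and -1.38), a feedback inhibitor, and Sfrp1 (-0.18 and -0.95), a secreted antagonist, were lower mainly in replicate 2. Of genes for DNA methylation and its removal, which bear on the role proposed for Gadd45a, 13 of 26 were lower in both and 4 higher. The oxidases Tet1 (59.1 and 47.8, then 92.6 and 57.9) and Tet3 (1007 and 825, then 776 and 591) were lower, Tdg, the glycosylase of the same route, differed by 0.07 and 0.30, and Dnmt3l, a cofactor of methylation, was higher (31.1 and 118, then 104 and 142, SE 0.59).

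Matrix, growth factor and skeletal genes held several lower values. Ltbp2, a matrix protein of the TGF-beta binding family, gave 8440 and 5163, then 48076 and 26197 (log2 -0.75 and -0.78, SE 0.10, adjusted p = 0.364). Fgf18, a growth factor of cartilage and bone, gave 28586 and 17824, then 2376 and 1086 (-0.73 and -1.03, adjusted p = 0.376). Eln, elastin, gave 121 and 79.7, then 293 and 48.7. Of 8 measured cartilage and bone markers 4 were lower in both and 0 higher, among them the cartilage regulator Sox9 (176 and 128, then 1349 and 948). Of 30 fibroblast matrix and identity genes 6 were higher and 11 lower in both, with medians of -0.03 and 0.00. Over all measured genes 24.2% were higher and 32.1% lower in both. The receptor Pdgfra differed by -0.34 and -0.31. The gelatinase Mmp2 was lower (-0.34 and -0.46), and Plaur, the urokinase receptor, higher (5091 and 7532, then 3549 and 5718). Bmp6, a secreted BMP, was higher as well (475 and 729, then 58.7 and 95.0), as was Areg, a ligand of the EGF receptor (70.9 and 108, then 29.1 and 151).

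Genes of the states that reprogramming passes through were sparsely measured. Of 32 pluripotency genes listed, 12 were measured: 5 were higher in each replicate and 5 lower in each. For these and the epithelial genes below, the shares over all measured genes were 24.2% higher and 32.1% lower in both. Zfp296, a zinc finger factor of embryonic stem cells, gave 1184 and 1673, then 400 and 618 (log2 0.45 and 0.73, SE 0.11). Klf4 was bright on all 4 arrays and differed by -0.12 and -0.04. Pou5f1, Sox2, Nanog and Cdh1 were well above background on both arrays of no group and were not tested. Of 17 measured epithelial genes 5 were higher in both and 1 lower, with the desmosome protein Pkp3 (480 and 795, then 38.1 and 60.8) and the basal keratin Krt5 (28.2 and 48.9, then 19.8 and 30.9) each past 1.5-fold in both. Krt18, a simple epithelial keratin, gave 843 and 1016, then 716 and 1735. Of neuronal and glial genes, Nes, an intermediate filament of progenitor cells, was higher beside Slc17a6 and Gap43 (6516 and 9075, then 3331 and 4365), while the neuronal markers Tubb3 (0.16 and -0.17) and Stmn2 (-0.27 and 0.17) had no common direction. In these bulk cultures, fewer cells of a type and less RNA per cell cannot be told apart.

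Markers of other cells gave no single direction. The 13 measured macrophage and leukocyte markers had medians of 0.24 and -0.04: Aif1 (48.5 and 70.4, then 199 and 249.5) was higher in both, while Lyz2, a lysozyme, gave 804 and 871, then 7592 and 4038. The summed macrophage markers, mostly Lyz2, were higher in Flag than in Gadd45a on replicate 2. There the interferon genes were lower in Flag, and the part of macrophages in the interferon difference was not tested. The 3 defining endothelial markers Pecam1, Cdh5 and Tie1 were not well above background on any of the 4 arrays, and neither were the muscle regulators Myod1 and Myog. Emcn, an endothelial sialomucin, gave 155 and 183, then 418 and 1004.

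Genes past 2-fold in opposite directions, or nearest to it, were led by Ifit3b, an interferon-induced gene (145 and 47.0, then 133 and 437; log2 -1.67 and 1.81), and Rai2, a retinoic acid-induced gene (138 and 51.3, then 18.0 and 69.7). The third gene past 2-fold carries only a transcript identifier. Prl2c5 and Prl2c3 followed. Col23a1, a membrane collagen, and Efnb3, an ephrin, went the other way, higher in replicate 1 (0.86 and 0.92) and lower in replicate 2 (-1.06 and -0.78). Another probe of Col23a1 had the same sign in the fit.

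Genes bright in one group only are bounded rather than measured, since a dim probe gives no level. Each fold below, except that of Rrm2b, is a lower bound that takes no account of the error between arrays. It divides the mean of the bright group by a ceiling for the dim group, taken on each array as the lowest signal that counted as well above background there, or as the probe's own signal where that was higher. Of the 10 genes bright only on the Gadd45a arrays, 6 have a symbol. St8sia6, a sialyltransferase, gave 3.98 and 3.49 in Flag, 169 and 94.5 in Gadd45a, at least 7.06-fold higher (adjusted p = 0.364). Ccr9, a receptor that guides lymphocytes to the gut, gave 92.1 and 74.9 in Gadd45a (at least 4.65-fold), and Myrip, a linker of myosin to secretory granules, 91.4 and 23.5 (at least 2.59-fold). Fam183b was at least 2.42-fold higher and Krtap1-5, a keratin-associated protein, at least 2.11-fold. Rrm2b, a p53-induced subunit of ribonucleotide reductase, gave 23.8 and 18.5 in Flag and 43.7 and 29.8 in Gadd45a. Its Flag signals exceeded the lowest called well above background on those arrays (19.3 and 17.1). The 1.75-fold of Rrm2b is therefore the plain ratio (log2 SE 0.51). It was brighter on a G39A array, at 85.6. Of the 10, G39A was bright on both arrays for 0 and on 1 array for 2.

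The genes bright only in Flag were more, 251, and dimmer, with a median signal of 28.8 against 53.4 for the 10. Fewer probes were well above background on the Gadd45a arrays (56.5% and 59.4%) than on the Flag arrays, and the lowest signal called so was 35.1 on Gadd45a replicate 1 against 19.3 on Flag replicate 1. For 155 of the 251 the bound was above 1, and for 10 it reached 2-fold. Dlgap1, a postsynaptic scaffold, gave 59.1 and 160 in Flag and was dim in Gadd45a, at least 3.57-fold lower (adjusted p = 0.127). Dcdc5, a doublecortin domain gene, was at least 2.98-fold lower, Fn3k, a kinase that reverses protein glycation, at least 2.55-fold, and Olfml1 at least 2.51-fold. Rasal3, a Ras inhibitor of blood cells, was at least 2.38-fold lower, Gimap5, a lymphocyte GTPase, at least 2.11-fold, and Tmem132b at least 2.05-fold. For Foxi1, a forkhead transcription factor, the bound was 1.94-fold. Rasal3 gave 32.5 on both replicate 1 arrays, and Olfml1 gave 31.2 on Flag replicate 1, under the 35.1 of Gadd45a replicate 1, so both bounds rest on replicate 2. On G39A, 56 of the 251 were bright on both arrays, 114 on 1 and 81 on none. The p-values of genes bright in one group only, in either direction, rest partly on dim signals.

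**Figure D5:**
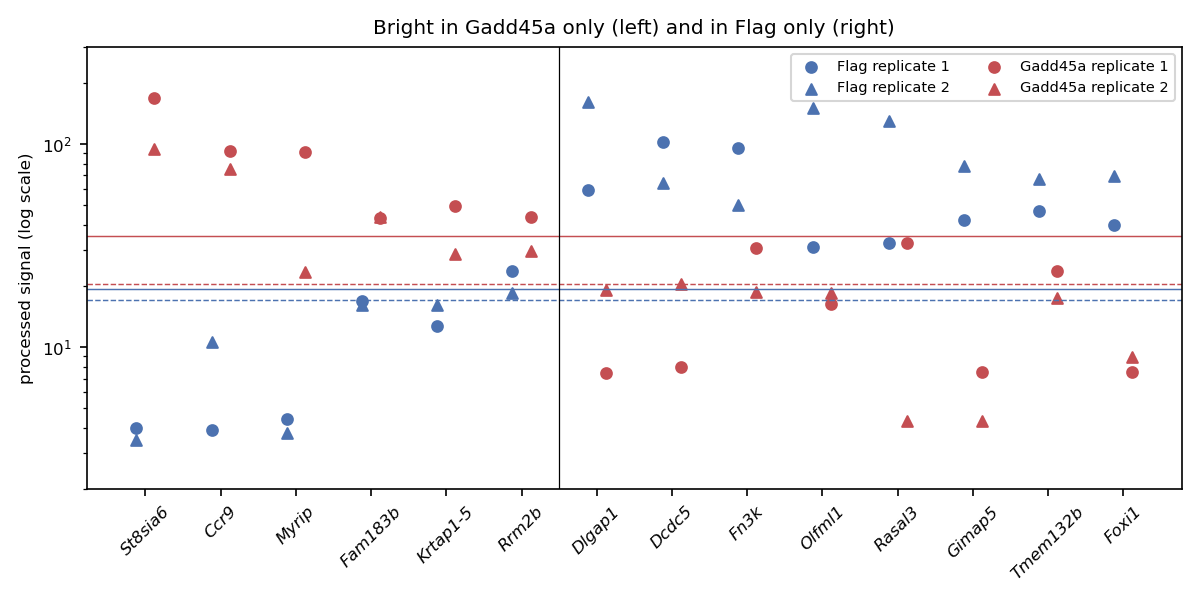
Processed signal on a log scale (vertical axis) of named genes bright in Gadd45a only (left of the line) and in Flag only (right), on each of the 4 arrays, with circles for replicate 1 and triangles for replicate 2; horizontal lines mark, for each array, the dimmest signal that counted as well above background (blue Flag, red Gadd45a, solid replicate 1, dashed replicate 2). The highest line, at 35.1, is that of Gadd45a replicate 1, and St8sia6 shows the widest gap between the groups.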

How the data were processed

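Spot intensity values were made by the authors with Agilent Feature Extraction 10.7, per the submitters' processing notes, and by the file headers they were background-subtracted and not normalized between arrays; probe coordinates are mm9. The deposited value table (log2, each column with a median of 6.17) followed each array's own intensity (r at least 0.9989). What else was done to it is not stated. Unflagged spots of a probe were averaged, log2 was taken, and the 75th percentile of the array was subtracted. Names came from RefSeq accessions (27668 of 41174 probes). A gene was tested if 1 or more of the 3 groups had its probe well above background on both of its arrays. The test was limma 3.58 (R 4.3), group plus replicate number on all 6 arrays, with Benjamini-Hochberg adjustment at 0.05; 2 residual degrees of freedom limit its precision (median SE 0.117). The pairing was set by the comparison, which is defined within replicate number. Arrays of the same number deviated together (r 0.911 to 0.915). The limma model was tested on simulated data.

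Named were 12 question genes, the 15 highest and 15 lowest by the smaller of their 2 within-replicate differences, the 8 of smallest p, up to 8 each way bright in one group, 6 opposite genes and up to 4 members of each of 43 lists (938 of 1118 symbols measured). Others named were chosen after their values were seen: all other prolactin genes, Oas2, Usp18, Mapk8, Mapk14, Map2k3, Tdg, Lyz2, Dppa5a, Cd68, Tubb3 and Stmn2. The members and lists were chosen with earlier results of these data known. One gene that the rule names is not reported here.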

Additional observations from a re-analysis of the deposited data

How the results depend on the processing

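Without the replicate block, limma called 0 genes too (97 at an unadjusted p under 0.05, lowest adjusted p = 0.712), and so did the block on the 4 arrays alone, slide as a fixed block, quantile normalization, normexp, the deposited table, the other filters, probes taken singly or by their median, and each fit without 1 array. Slide as a random block called 19 (Slc17a6, Prl, St8sia6, Fam183b, Dlgap1 and Foxi1 of those named), scaling to the array median 5 (Dlgap1 and Foxi1) and an intensity trend 1 (Capn6). The cause was not tested. St8sia6, Fam183b, Dlgap1 and Foxi1 passed the filter through 1 bright group, so their p-values rest partly on dim signals and lend no support. Genes at least 2-fold higher, lower and opposite numbered 6, 4 and 3, and became 3, 1 and 1 with normexp, whose offset of 50 shrinks differences of dim probes. They became 136, 111 and 189 without a filter on dim probes, and 44, 52 and 17 at 1.5-fold. Chosen after seeing the data, replicate 1 alone gave 34 higher and 16 lower, replicate 2 alone 196 and 129, and a signal of at least 100 on all 4 arrays left 2, 2 and 1. Of 211 named genes 6 turned direction under an alternative. With the median over probes these were Thy1 (0.0738), Dusp16 (-0.0350) and Hoxd13 (0.166). Leaving out 1 array gave -0.210 to 0.0296 for Gadd45g, -0.176 to 0.0155 for Klf4, -0.544 to 0.0686 for Aurkb and -0.470 to 0.0254 for Hoxd13. Of the medians of 43 lists under 10 alternatives, 370 moved by less than the replicate spread and 60 by more.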

Other observations

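Further members of the lists, not named above, had these values. Of integrins and laminins, Itga5, the fibronectin receptor subunit, was higher (477 and 574, then 1152 and 1447) and Itgb8, which activates TGF-beta, lower (160 and 133, then 57.9 and 43.3), although 1 of 2 other Itgb8 probes had the opposite sign. Cbx8, a Polycomb protein, gave 317 and 255, then 513 and 293, and Smarca2, a chromatin remodeller, 3424 and 2820, then 1273 and 746. Vcam1, an adhesion molecule for leukocytes, gave 32411 and 19269, then 6869 and 5647. Ntrk2, the receptor for BDNF, gave 111 and 74.2, then 159.5 and 73.9, and Angpt1, an angiopoietin, 213 and 161, then 97.6 and 48.6. Des, desmin, gave 179 and 248, then 538 and 689, and Chrna1, an acetylcholine receptor subunit of muscle, 890 and 1227, then 86.4 and 230. Hoxb8 gave 114 and 151, then 295 and 408. None of these passed limma's test over all genes.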
